A study of Caenorhabditis elegans with 2 samples.

Results

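The AP-2 family of Caenorhabditis elegans has 4 genes, numbered aptf-1 to aptf-4, and all 4 were taken by name from the 19973 protein-coding genes of the WBcel235 annotation. For each gene, every peak summit was collected from 5 kb before its 5′ end to 5 kb past its end, in chromatin immunoprecipitation sequencing (ChIP-seq) of the APTF-3 protein. The question put to the data was whether a factor of this family may bind near its own family's genes. The 4 gene windows together held 41 of the 99784 candidate summits of the series list, 42 of the 85218 candidates of replicate 1 and 29 of the 72073 candidates of replicate 2. None of them passed the authors' reproducibility threshold.

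AP-2 proteins are transcription factors that bind DNA as dimers, at GC-rich palindromes usually written GCCNNNGGC. The family is conserved between worms and mammals, where it is known for roles in early development, the neural crest and the epidermis. In C. elegans, APTF-1 acts in the sleep-active neuron RIS and APTF-2 is known for epidermal morphogenesis in the embryo.

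The samples were whole young adults of strain OP765, which carries the integrated transgene wgIs765 in an unc-119(tm4063) mutant background. The transgene is a fosmid, a large genomic clone, in which aptf-3 carries a tag of TY1, EGFP and 3xFLAG, together with the rescue marker unc-119(+). Worms were hatched after bleaching, starved as first-stage larvae, grown to 64 h and precipitated with an antibody to GFP, after sonication to fragments of 200 to 800 bp. There was 1 group of 2 biological replicates, with no second condition, no other strain and no other stage, so every value below describes these 2 replicates. The labels name no mutation of an aptf gene, and reads from the fosmid copies of the aptf-3 region and from the native locus cannot be told apart. The sources used here do not say which neighbours of aptf-3 the fosmid holds. Whole animals were used, so a site bound in few cells and a site bound weakly in many cells cannot be told apart.

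The genes lie in 3 places on ce11. The gene aptf-1 (WBGene00019424, K06A1.1) spans chrII:6454971-6456546 on the plus strand with 6 exons. The gene aptf-2 (WBGene00013383) spans chrIV:13413555-13416051 on the minus strand, and its 5′ end overlaps that of pik-1, a kinase gene on the other strand, by 11 bp. The genes aptf-4 (WBGene00009202, chrII:8590984-8593012) and aptf-3 (WBGene00009203, chrII:8594190-8596291) stand in tandem on the plus strand with 4 exons each. The 5′ end of aptf-3 is 3206 bp past that of aptf-4, so the windows of both genes share 10 series candidates, with 7 more in that of aptf-3 alone and 2 in that of aptf-4 alone.

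The tandem pair is also the most alike in sequence. Coding sequences of aptf-3 and aptf-4 were identical at 77.0% of aligned bases and shared 61 words of 36 bases, whereas the other 5 pairs ranged from 56.5% to 64.8% and shared 0 such words. The longest identical genomic run was 87 bases, in exon 2 of both genes, and it is shown because a read inside it has the same sequence at both genes. The run is in capitals, with 10 bases of each gene on either side, 5′ to 3′ on the plus strand of ce11.
aptf-3, chrII:8595060-8595146: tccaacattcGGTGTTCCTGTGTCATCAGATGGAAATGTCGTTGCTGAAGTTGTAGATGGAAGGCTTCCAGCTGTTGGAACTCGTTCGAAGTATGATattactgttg
aptf-4, chrII:8591888-8591974: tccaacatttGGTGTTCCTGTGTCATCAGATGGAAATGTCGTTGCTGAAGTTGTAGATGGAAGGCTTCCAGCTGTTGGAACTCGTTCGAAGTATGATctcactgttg
No series summit lay in this run: the nearest was 161 bp away at aptf-3 and 328 bp away at aptf-4. The other identical runs of 36 bases or more were 40 bases in exon 3 and 39 bases in exon 4. The 40-base run began 30 bp past the highest summit of the aptf-3 gene body, and the 39-base run held an aptf-4 summit. The sources used here do not say how reads that match several places were treated.

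The DNA under 5 of the highest candidates is shown because AP-2 proteins are known for a GC-rich site. The highest of all, past aptf-3, is not printed because it lies in a UTR. Each sequence holds the 101 bases centred on the summit, on the plus strand of ce11, with the 9 bases closest to GCCNNNGGC in capitals, or the first of 2 equally close stretches in the aptf-1, gcl-1 and aptf-3 exon 3 sequences.
aptf-1, intron 1, chrII:6455078-6455178: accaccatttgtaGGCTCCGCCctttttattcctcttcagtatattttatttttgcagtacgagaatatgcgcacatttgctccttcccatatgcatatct
aptf-2, intron of gcl-1, chrIV:13410193-13410293: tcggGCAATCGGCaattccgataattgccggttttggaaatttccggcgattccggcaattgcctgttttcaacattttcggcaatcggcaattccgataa
aptf-3, exon 3, chrII:8595257-8595357: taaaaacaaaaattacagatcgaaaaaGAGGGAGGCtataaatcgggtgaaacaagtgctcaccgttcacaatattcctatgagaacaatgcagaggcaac
aptf-3, exon 2, chrII:8594698-8594798: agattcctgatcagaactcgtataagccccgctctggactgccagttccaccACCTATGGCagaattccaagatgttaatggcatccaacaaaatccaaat
aptf-4, upstream, chrII:8586765-8586865: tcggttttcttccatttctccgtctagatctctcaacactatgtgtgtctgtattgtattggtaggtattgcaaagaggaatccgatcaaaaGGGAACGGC
The closest 9 bases missed the 6 fixed bases of the consensus at 1 position in the gcl-1 intron and in aptf-3 exon 2, and at 2 positions in the other 3 sequences.

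No aptf gene had a reproducible peak in its window. The authors' thresholded lists hold peaks with an irreproducible discovery rate (IDR), a measure of how poorly a peak's rank repeats between lists, of at most 0.01. The count was 0 of 4 aptf genes in the series thresholded list, against 10.1% of all protein-coding genes. It was also 0 of 4 in the conservative series list, where the share over all genes was 8.71%, in the list of replicate 1, with 2.61%, and in that of replicate 2, with 3.36%. With shares this low among genes in general, a count of 0 of 4 does not set the family apart from other genes.

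The single candidates gave the same picture. Candidates with an IDR of at most 0.01 numbered 0 of 41 in the series list, against 0.85% of all candidates, 0 of 42 in replicate 1, against 0.256%, and 0 of 29 in replicate 2, against 0.376%. The lowest IDR in any of the 4 windows in the series list was 0.0814, in the aptf-3 window, and the next was 0.0941, in aptf-1 itself. In the ranked list behind the conservative set, the same candidates had IDRs of 0.0511 and 0.107. The candidate with the IDR of 0.0814 also had the highest signal of the 41, at 50.2 in the authors' units, a scale that is nowhere defined for these lists. In the whole list, 3799 candidates had at least that signal and 78.8% of those had an IDR above 0.01, while 41 of the 785 thresholded peaks had a lower signal. Signal alone therefore did not decide which candidates passed.

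**Figure D1:**
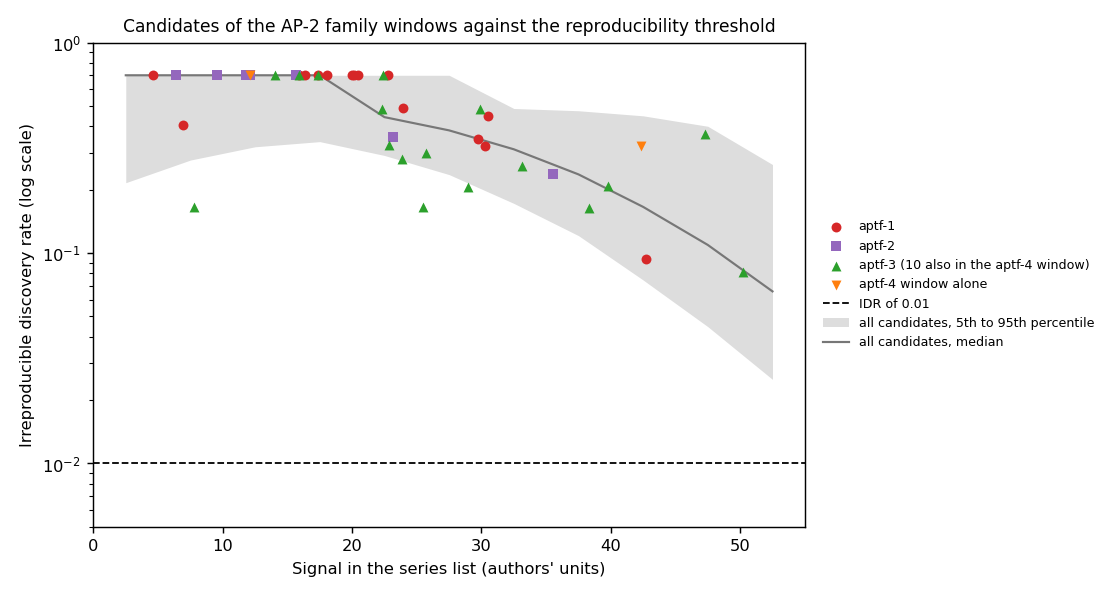
Signal (authors' units) of each series candidate in the 4 gene windows against its irreproducible discovery rate (log scale), with the median and the 5th to 95th percentile of all candidates in bins of 5 signal units and a dashed line at 0.01. All 41 points lie above the line, and the lowest is at 0.0814.

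Of the 4 windows, that of aptf-1 was the one whose highest candidate lay at the gene's own start. Its summit at position 6455128 was in intron 1, 157 bp past the 5′ end, and it had a signal of 42.7 in the series list, at the 91.6th percentile of candidates. Replicate 1 had a summit 40 bp away with a signal of 22.4, which was at the 87.4th percentile of its own list. Replicate 2 had a summit 72 bp away with a signal of 22.2, at the 82.7th percentile. Both replicates thus placed their highest candidate of this window in the first 229 bp of the gene. These summits were 112 bp apart from each other, more than the 100 bp used below to match summits. Each was only slightly higher than the next in its list, 22.1 in exon 5 in replicate 1 and 22.1 in atg-16.2 in replicate 2. Among promoters with a candidate, taken as 1000 bp before to 200 bp after the 5′ end, the highest signal of the aptf-1 promoter was at the 84.7th percentile in the series list and at the 80.6th in replicate 1. Replicate 2 had 0 candidates in that promoter, as its summit lay just past the limit.

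The aptf-1 window as a whole, the start included, was ordinary. It held 15 series candidates with a median signal of 20.1, which was at the 35.1st percentile of gene windows, and the highest signal, that at the gene's start, was at the 33.9th percentile of the highest signals of gene windows. The second candidate, with a signal of 30.5, lay 2498 bp upstream in exon 2 of atg-16.2, an autophagy gene. Replicate 2 had a summit of 22.1 there, at the 82.5th percentile, whereas that of replicate 1 was at 5.35, at the 9.51st percentile. The next, with 30.3, lay in an intron of dgk-5, a diacylglycerol kinase gene, with 16.0 in replicate 1 and 14.2 in replicate 2. The remaining replicate summits among the 3 highest were 22.1 in exon 5 of aptf-1 and 17.1 in atg-16.2 in replicate 1, and 16.2 between genes in replicate 2.

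For aptf-2 the series list held no candidate in the 5 kb upstream or in the gene body. All 7 of its candidates lay downstream, in gcl-1, a relative of the Drosophila germ cell-less gene. A total of 15.3% of protein-coding genes had no series candidate in the 5 kb upstream, and 10.9% had none there or in the gene body. The stretch without a candidate ran for 17.6 kb from position 13412770 to 13430362, at the 99.5th percentile of distances between neighbouring series summits. Of its bases, 58.4% were soft-masked, that is marked as repetitive in the reference, and 52.2% of the aptf-2 window was soft-masked, against 22.0% to 26.3% of the windows of the other members. The part of this difference in the missing candidates was not tested.

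The 7 candidates of the aptf-2 window were low. Their median signal was 12.1, at the 1.56th percentile of gene windows, and the highest, in a gcl-1 intron, was 35.6, at the 83.0th percentile of candidates. The 201 bases around that summit were soft-masked over 100% of their length, and its printed sequence repeats short units such as aattccg. Replicate 1 had 13.2 there, at the 49.5th percentile, and replicate 2 had 18.8, at the 71.1st. The next series candidates had signals of 23.2 and 15.7, also in gcl-1. In replicate 2 the median was not low: its 6 candidates had a median of 14.2, at the 44.9th percentile of gene windows, whereas the 8 of replicate 1 had 8.66, at the 3.09th.

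A summit inside aptf-2 itself appeared in some lists only. Replicate 1 had 1, at position 13413914 in the last exon, at 16.97, or the 69.1st percentile, which was its highest in the window. Replicate 2 had 0 in the gene body. The ranked list behind the conservative set had 1, with a signal of 30.3 and an IDR of 0.251, 81 bp from that of replicate 1. The next highest were 13.2 and 11.4 in replicate 1 and 20.3, 18.8 and 14.7 in replicate 2, all of them in introns of gcl-1.

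**Figure D2:**
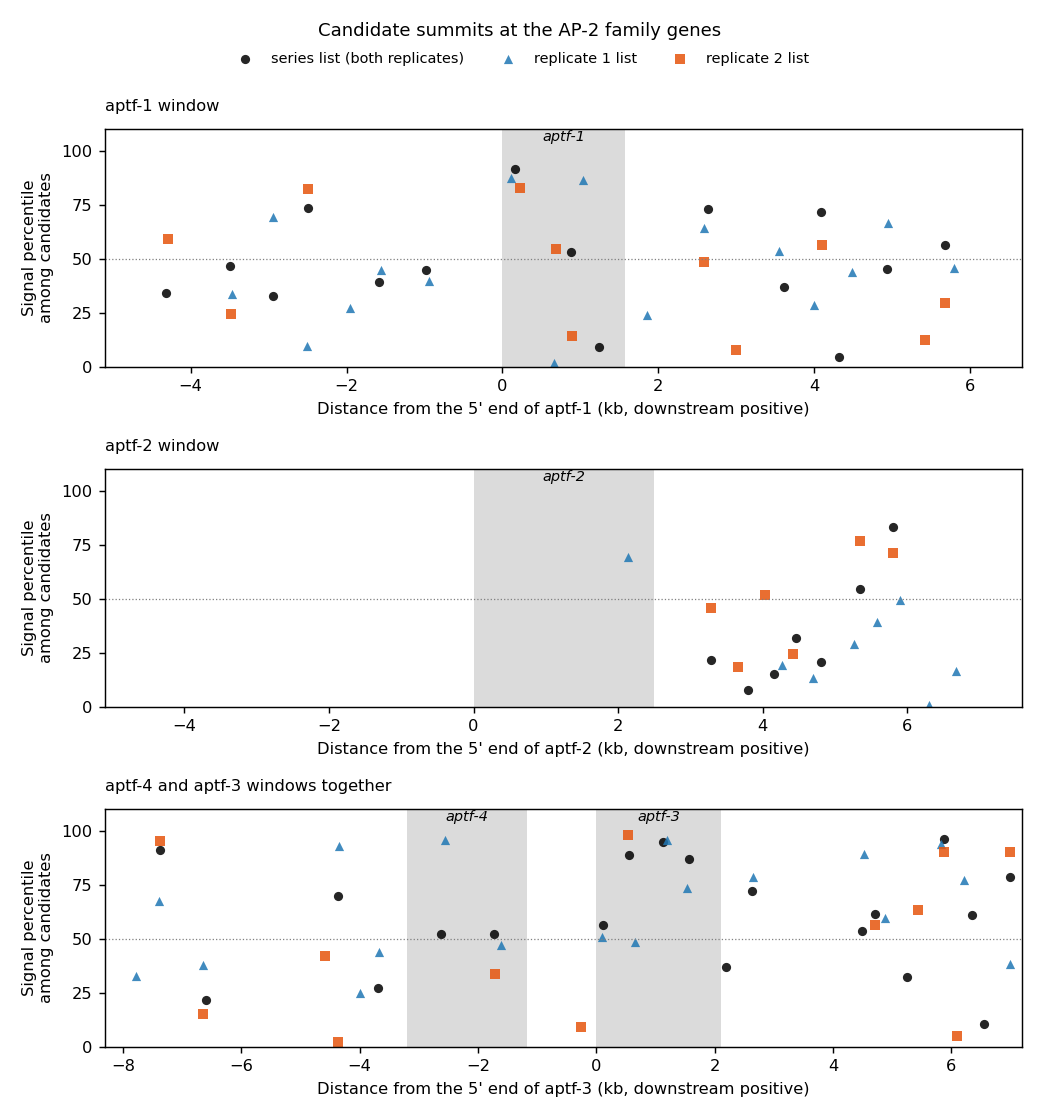
Percentile of each candidate's signal within its own list against distance from the 5′ end (kb), for the series list (circles), replicate 1 (triangles) and replicate 2 (squares), with gene bodies shaded and a dotted line at the 50th percentile. The replicates have summits near each other at the 5′ end of aptf-1, the region upstream of aptf-2 is empty in all 3 lists, and the aptf-3 gene body holds high points that the replicates place differently.

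Inside aptf-3, the gene whose product was precipitated, the series list had 4 summits, and the replicates did not place their strong ones together. The highest, in exon 3, 1117 bp past the 5′ end, had a signal of 47.3 at the 94.8th percentile. Replicate 1 had 28.2 there, 72 bp away, at the 95.8th percentile and the highest value of its window. In replicate 2 the nearest summit was 586 bp away.

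In exon 2 the replicates stood the other way round. The series summit 558 bp past the 5′ end had a signal of 39.8, at the 88.7th percentile. Replicate 2 had 35.5 there, 27 bp away, at the 98.2nd percentile and its highest in the window, whereas replicate 1 had 13.1 at 97 bp, at the 48.7th percentile. Exon 4 had a series summit of 38.3, with 18.0 in replicate 1, and the nearest summit of replicate 2 was 1026 bp away. The IDRs of these series summits were 0.370 in exon 3, 0.209 in exon 2 and 0.164 in exon 4. In the ranked list behind the conservative set they were 0.149, 0.276 and 0.218. The exon 3 summit thus had the highest IDR of these in the series list and the lowest in the other. At the 5′ end itself the series summit was 115 bp in, in the 5′ UTR, with a signal of 23.9 at the 56.4th percentile, and it was the one candidate of the aptf-3 promoter.

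The candidate nearest to the threshold in the family lay past aptf-3. Its summit was at position 8600063, 5873 bp from the 5′ end of aptf-3, in exon 3 of F28C6.5 and in the 5′ UTR of pigg-1, the gene of a glycosylphosphatidylinositol-anchor enzyme on the other strand. Its signal of 50.2 was at the 96.2nd percentile. Replicate 1 had 26.1 at 51 bp, at the 93.7th percentile, and replicate 2 had 25.5 at 2 bp, at the 90.1st percentile. Here both replicates had a high summit at the same place. Beside its summit in aptf-3 exon 2, replicate 2 had 1 other candidate as high in this window, with 25.6 in cpf-1, a gene of mRNA 3′-end cleavage, where replicate 1 had 11.3.

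The aptf-3 window held 17 series candidates with a median of 25.5, at the 77.8th percentile of gene windows. The replicates differed: 15 candidates of replicate 1 had a median of 18.0, at the 93.1st percentile, and 10 of replicate 2 had 14.3, at the 46.6th. The highest signal of the window was at the 60.1st percentile of gene windows in the series list, at the 61.7th in replicate 1 and at the 83.7th in replicate 2.

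Within aptf-4 the candidates were near the middle of the list. Its 2 series summits in the gene body had signals of 22.3 in exon 2 and 22.4 in exon 4, at the 52.0th and 52.3rd percentiles. For the one in exon 2 replicate 1 had 27.9, 74 bp away at the 95.5th percentile, and the nearest summit of replicate 2 was 912 bp away. For the one in exon 4 replicate 2 had 11.4 at 5 bp and replicate 1 had 12.8 at 108 bp. The promoter of aptf-4 held 1 series candidate, of 14.1, at the 27.1st percentile.

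The higher candidates of the aptf-4 window lay outside the gene. Its top candidate, at 47.3, was the exon 3 summit of aptf-3. The next, at 42.3, lay between genes 4169 bp upstream, with 29.9 in replicate 2 at the 95.4th percentile and 16.6 in replicate 1 at the 67.5th. Replicate 1 had a summit of 25.6, at the 93.1st percentile, 1147 bp upstream, where replicate 2 had 2.81. The next of replicate 2, with 13.0, lay 1377 bp upstream. The 12 series candidates had a median of 26.4, at the 82.4th percentile of gene windows. The median was at the 51.7th percentile in replicate 1 and at the 13.4th in replicate 2, both below the series value. With 10 kb on either side, which takes in the higher candidates around the pair, it was at the 96.7th percentile in replicate 1 and at the 99.4th in replicate 2.

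**Figure D3:**
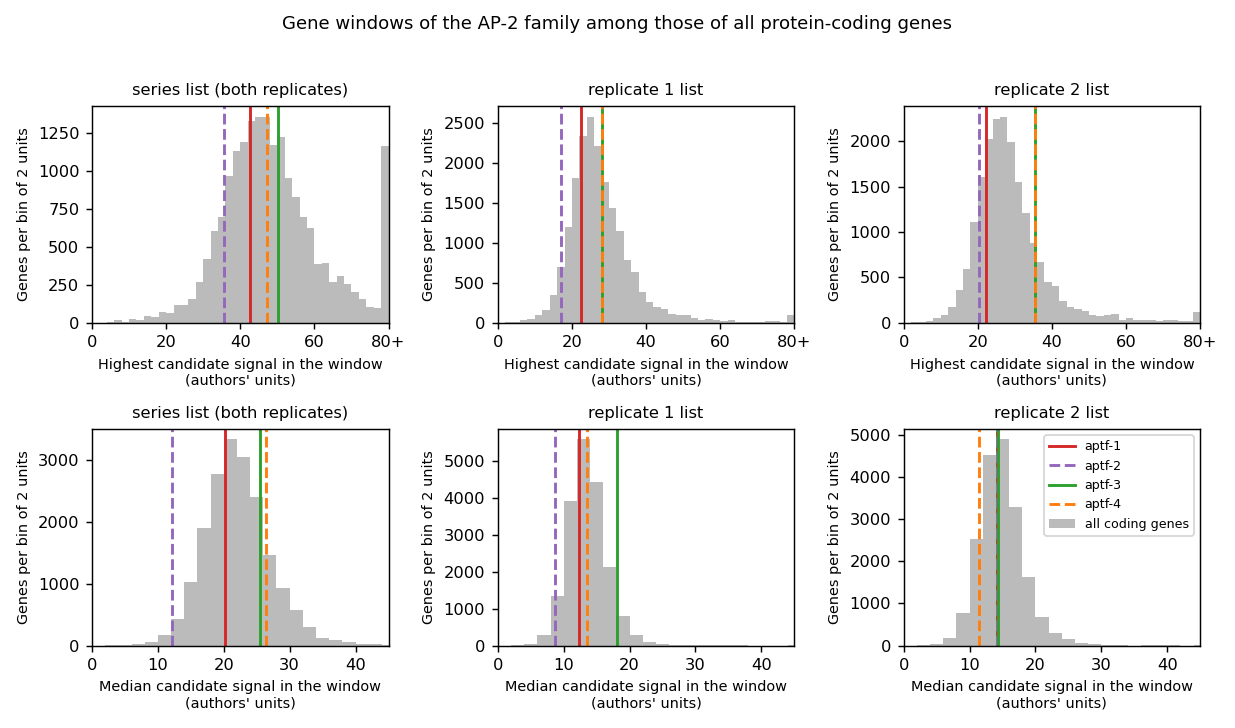
Highest (top row) and median (bottom row) candidate signal per gene window in the authors' units, for the 4 aptf genes (lines) over all protein-coding genes (grey bars, bins of 2 units, the last top-row bar holding all higher values). The aptf-2 lines lie furthest left in the series list and in replicate 1, while the aptf-1, aptf-2 and aptf-3 medians fall together near 14 in replicate 2.

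In order of the median series signal per window, aptf-4 came first with 26.4, then aptf-3 with 25.5, aptf-1 with 20.1 and aptf-2 with 12.1, against a median of 21.8 over all gene windows. In replicate 1 the order was aptf-3, aptf-4, aptf-1 and aptf-2, with 18.0, 13.5, 12.3 and 8.66. In replicate 2 aptf-3, aptf-2 and aptf-1 had 14.3, 14.2 and 14.2, and aptf-4 was last with 11.4. Of the neighbours in the series order, only aptf-3 and aptf-1 kept their order in both replicates, and in replicate 2 they differed by little. The windows of aptf-3 and aptf-4 share candidates, so their medians are not independent.

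Across the 4 windows, 13 of the 41 series candidates had a summit within 100 bp in both replicates, or 31.7%, against 32.0% of all candidates. With those 13 included, 25 were matched in replicate 1, or 61.0% against 60.5%, and 20 in replicate 2, or 48.8% against 52.8%. At 50 bp the share in both replicates was lower for the family, with 5 of 41 or 12.2% against 19.5% of all candidates, and at 200 bp it was 19 of 41 or 46.3% against 44.9%. Per window, 5 of 15 were matched in both replicates at aptf-1, 2 of 7 at aptf-2, 4 of 17 at aptf-3 and 4 of 12 at aptf-4.

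The consensus GCCNNNGGC, which reads the same on both strands, was within 100 bp of 0 of the 41 summits, against 1.56% of all candidates. With 1 of the 6 fixed bases allowed to differ, 8 of 41 had a match, or 19.5%, against 28.8% of all candidates. In 300 bases of promoter, from 250 before to 50 after the 5′ end, 0 of the 4 genes held it, as against 1.27% of all protein-coding genes. Over the whole gene windows 2 of the 4 genes had 1 match each, while 41.1% of all gene windows had one. Both are printed in 30 bases of the plus strand, with the match in capitals, because they are the family's only exact matches.
aptf-2 window, between genes, chrIV:13413137-13413145: catatggttaaGCCGTCGGCaacgacgcaa
aptf-3 window, F28C6.5 exon 3, chrII:8600183-8600191: actgtacattgGCCAACGGCagtgagtaca
The first stood 371 bp from the nearest series summit, which had a signal of 12.1. The second, which also lies in the 5′ UTR of pigg-1, stood 124 bp from the summit with the lowest IDR of the family, just outside the 100 bp.

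The nearest reproducible peaks lay outside the windows of all 4 genes. From aptf-3, the nearest series thresholded summit was 7.45 kb past the gene end with a signal of 64.0, between genes and 109 bp from the 5′ end of suf-1, a gene of mRNA 3′-end processing. Replicate 1 had a thresholded summit there as well, with 46.2 at 7.49 kb. The nearest of replicate 2, with 43.3 at 7.22 kb, lay in a coding exon of rpl-26, a ribosomal protein gene, 336 bp from the 5′ end of suf-1. From aptf-4, the nearest series one was 7.70 kb upstream in an intron of F54C9.11, with a signal of 67.8. In the conservative list the nearest to aptf-4 was 10.7 kb downstream, near suf-1, and in that of replicate 2 it was 10.5 kb downstream. From aptf-2 the nearest series one was 13.7 kb downstream in memi-2, a gene of the meiosis-to-mitosis switch in the early embryo, with 65.7. In the conservative list the nearest to aptf-2 was 14.3 kb upstream. From aptf-1 the nearest was 123 kb upstream in both the series and the conservative list, near set-4, a histone methyltransferase gene. Counted within 60 kb of the 5′ end, aptf-1 had 0 thresholded summits, aptf-2 had 4 and aptf-3 had 5, against a mean of 0.961 over all genes. At least 5 were found for 1.50% of genes and at least 4 for 4.20%. The counts differed by list. In the conservative list aptf-2 had 3, and at least 3 were found for 8.43% of genes. There aptf-3 had 4, and at least 4 were found for 3.04%. In the list of either replicate aptf-2 had 0 and aptf-3 had 2. At least 2 were found for 3.82% of genes in replicate 1 and 4.42% in replicate 2.

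Around the tandem pair, series medians in 5 kb bins were higher further out than beside the 5′ end of aptf-3. The series summits inside aptf-3 itself had signals of 23.9 to 47.3, and those inside aptf-4 had 22.3 and 22.4. In 5 kb bins from 20 kb upstream of aptf-3, the median series signals were 41.5, 44.0 and 45.4, then 22.4 and 27.8 in the bins on either side of its 5′ end, and then 37.3 and 33.9 up to 15 kb downstream. Over this whole stretch, which was chosen after its values were seen, 40 of 46 series candidates were above the list's median and their median was 33.9, against 22.4 for the 57 other candidates within 60 kb. Replicate 1 had medians of 21.2 in the stretch and 14.8 outside it, and replicate 2 had 23.8 and 13.0. Both replicates showed the higher stretch. They are no independent check of it, because the series list was made from the alignments of both. In the bin just before the 5′ end, where aptf-4 lies, the medians were 12.8 in replicate 1 and 8.38 in replicate 2. The bin just past the 5′ end holds aptf-3 and part of pigg-1. Its medians were 18.0 and 25.6, within the range of the bins further out. The 25.6 of replicate 2 rests on 2 candidates, 35.5 in aptf-3 exon 2 and 15.6 in pigg-1. Among these 3 lists the lower median of that bin was thus seen in the series list, where its candidates in pigg-1 had 17.4 to 29.9. The fosmid carries aptf-3, and its copies and those in the chromosome cannot be told apart in these lists.

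**Figure D4:**
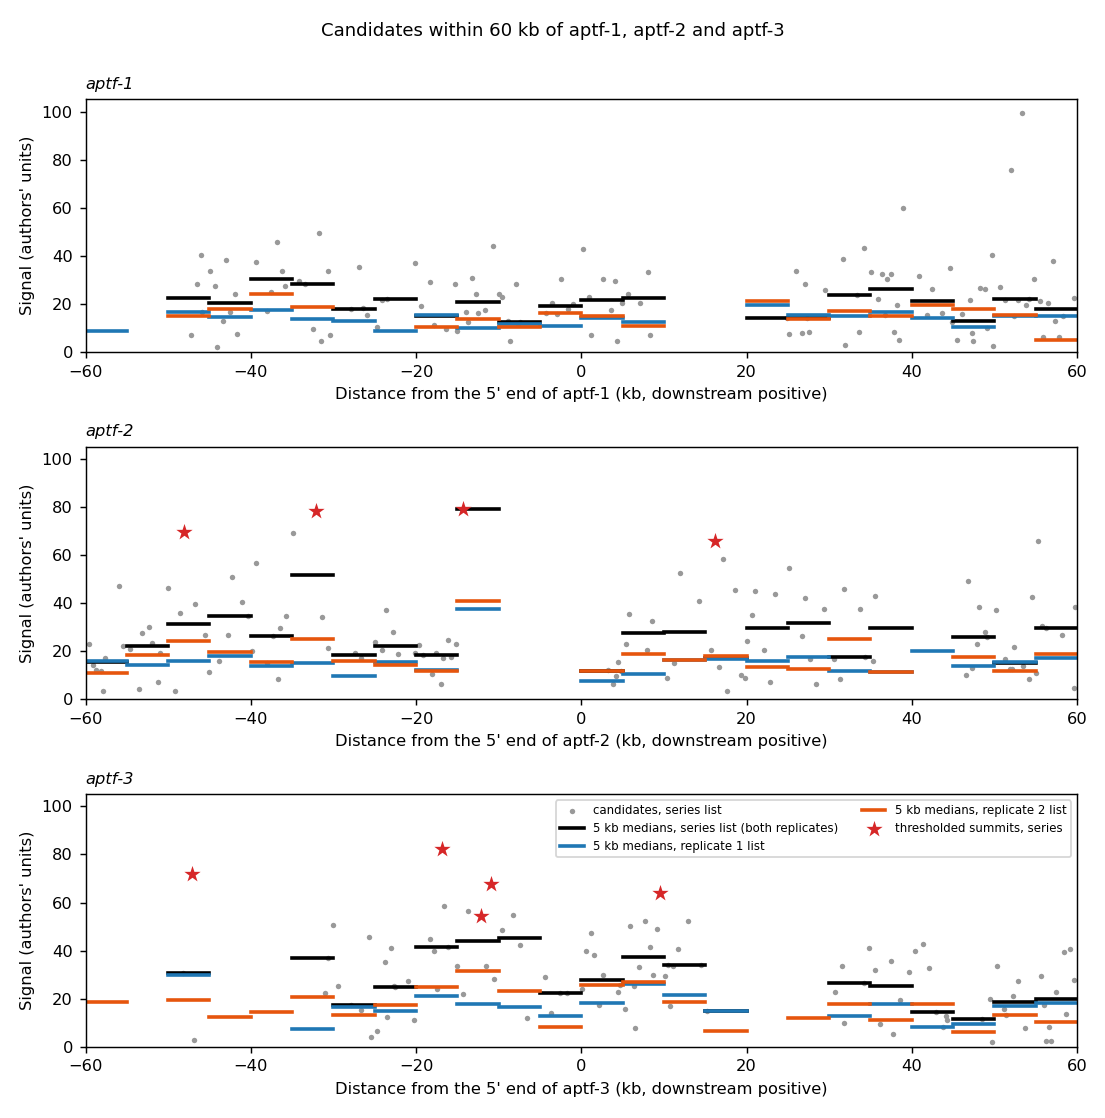
Series candidates (grey points), medians in 5 kb bins of the series list, replicate 1 and replicate 2 (lines) and series thresholded summits (stars) within 60 kb of the 5′ ends of aptf-1, aptf-2 and aptf-3, as signal in the authors' units against distance (kb). Stars stand on both sides of aptf-3 and of aptf-2 and none stands near aptf-1, and the bin medians around aptf-3 are high from 20 kb upstream to 15 kb downstream with a dip in the bin before its 5′ end, where aptf-4 lies.

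Genes from the pathways in which the family is known were set beside it. Among 9 genes of the RIS neuron and of sleep, 1 had a series thresholded summit in its window: ceh-17, a homeobox gene of the sleep-promoting ALA neuron, with a signal of 104.8. The neuropeptide gene flp-11, known to act downstream of APTF-1, had none, and its highest candidate was 44.0, close to the 42.7 of aptf-1. Among 10 genes of epidermal morphogenesis, 2 had one: ajm-1, of the apical junction, with 88.1, and vab-1, an Eph receptor, with 73.5. The share over all protein-coding genes was 10.1%, so neither count stands apart. Of these peaks, those of ceh-17 and ajm-1 were also in the list of replicate 2, and that of vab-1 was in neither replicate's own list. The highest candidates of the 4 aptf windows ranged from 35.6 to 50.2, against medians of 46.9 for the sleep list, 52.4 for the epidermal list and 47.2 for all gene windows. The rescue marker unc-119 had none, with a highest candidate of 45.2.

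By median signal in replicates 1 and 2, the windows most like that of aptf-1 were those of rhgf-2, unc-83 and Y55D5A.3, and those most like aptf-2 were cest-9.2, C52E4.12 and C27B7.9. For aptf-3 they were nas-27, Y49F6B.12 and Y23H5B.12, and for aptf-4 R10E4.1, F45C12.17 and cdka-1. Likeness was the distance between log2 median signals over the 2 replicates. Many genes were this close: 1071 lay within 0.1 of aptf-1, 526 of aptf-4, 287 of aptf-3 and 101 of aptf-2.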

How the data were processed

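The authors deposited 8 peak lists of ChIP-seq on ce11, per the labels, and the lists hold no read counts, so sequencing depth is unknown and no counting error could be given. The replicates are separate biological replicates per the labels. Each deposited peak has a signal, the authors' own value on an undefined scale, and each deposited ranked list has the −log10 of the global IDR, here turned back into an IDR. The aligner and the peak caller are each not given in the sources used here. In the series ranked lists, 16 columns of single inputs were not tied to a replicate and were not used.

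Genes came from Ensembl release 115 (WBcel235, the assembly of ce11). Summits were placed 1-based. Percentiles are shares of candidates, or of gene windows with at least 1 candidate, at or below a value, with ties counted at their mean rank. Coding sequences were aligned with Biopython 1.88. Calculations used Python 3.11.15, pandas 2.3.3 and NumPy 2.4.6, and the code was checked on simulated summits and motifs.

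The genes, lists and measures were chosen with earlier results of these data known. Named were the members, their neighbours, the genes at the nearest thresholded summits, up to 3 candidates per member and list, the 3 most similar windows per member and 3 gene lists. All results are descriptions: with 1 group there was no comparison of conditions and no test.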

Additional observations from a re-analysis of the deposited data

How the results depend on the processing

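The count of 0 genes with a reproducible peak stayed 0 in the conservative list and in the lists of the single replicates (0 to 0). It was also 0 with 2000 bp either side and with any overlap of the peak. With 10000 bp either side it was 2, as the peaks near suf-1, in F54C9.11 and in arl-1 came in. In that window 16.2% of all genes had a peak. The conservative list then gave 1, aptf-3, against 13.9% of all genes. In the list of replicate 1, aptf-3 and aptf-4 then had 1 peak each, where 4.25% of all genes had a peak. In that of replicate 2 aptf-3 had 1, where 5.49% of all genes had a peak. The percentile of the highest candidate among all candidates moved for aptf-2 to 31.8 with 2000 bp, 97.0 with 10000 bp and, in an alternative added after seeing the data, 20.4 among candidates with at most 50% soft-masked bases. For aptf-3 it moved to 99.0 with 10000 bp and 56.4 in the promoter only, and for aptf-4 to 88.7 with 2000 bp, 99.2 with 10000 bp and 27.1 in the promoter. The aptf-2 promoter had no candidate and gives no value. With 1 replicate left out, the ranges were 82.7 to 87.4 for aptf-1, 69.1 to 76.9 for aptf-2 and 95.8 to 98.2 for aptf-3 and aptf-4. The percentile of the window median moved for aptf-1 to 45.4 with 2000 bp. For aptf-4 it was 57.4 with 2000 bp and 96.7 with 10000 bp. With 10000 bp it was 96.8 for aptf-3 and 4.08 for aptf-2. For these 3 genes each shift from the series value was below the standard deviation of the replicates' 2 percentiles. That deviation was wide, at 27.1 for aptf-4, 32.9 for aptf-3 and 29.6 for aptf-2. The 57.4 and 96.7 of aptf-4 and the 96.8 of aptf-3 lay above both replicates' values. With 1 replicate left out the percentile of the window median ranged from 34.3 to 44.6 for aptf-1, 3.09 to 44.9 for aptf-2, 46.6 to 93.1 for aptf-3 and 13.4 to 51.7 for aptf-4. Candidates matched in both replicates were 5 at 50 bp (12.2%, against 19.5% of all candidates) and 19 at 200 bp. Consensus matches were 1 at 200 bp (2.73% of all candidates have one), 1 in whole peaks (2.14%), 0 with spacings of 2 to 4 bases (5.35%), and, all added after seeing the data, 8 with 1 mismatch, 1 for the rearranged form and 0 to 1 with 1 replicate left out. The cause of these shifts was not tested. No summit position occurred more than once, so keeping 1 candidate per position changed nothing. No paired analysis was possible because there is 1 group. Read depth is unknown, so a weak site cannot be told from a site missed.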

Other observations

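The 9 bases in capitals at the aptf-1 summit, GGCTCCGCC, hold both arms of the palindrome in the other order. This rearranged form, GGCNNNGCC, was looked for after that sequence had been seen. It was within 100 bp of 1 of the 41 candidates of the 4 windows, or 2.44%, against 2.25% of all candidates.

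Coding sequence held 23 of the 41 candidate summits of the family windows, or 56.1%, against 36.1% of all candidates. It made up 39.4% of the bases of the 4 windows, which are centred on coding genes, against 24.6% of the genome. At aptf-1 it was 9 of 15, at aptf-2 3 of 7, at aptf-3 11 of 17 and at aptf-4 7 of 12.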
